A study of Mus musculus with 6 samples.

Results

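The nuclear genes for the subunits of the mitochondrial respiratory chain and ATP synthase were examined in RAW 264.7 cells, a mouse macrophage-like tumour line labelled as wild type. Members were chosen by gene symbol (the stems of Nduf with a, b, c, s or v, the 4 Sdh genes, Uqcr, Cox4 to Cox8, and Atp5), which gave 84 of the 22027 genes in the deposited table. They comprised 37 genes of complex I, 4 of complex II, 8 of complex III, 18 of complex IV and 17 of complex V. RNA sequencing covered 3 libraries titled siTET3, from cells given a single siRNA against Tet3, and 3 libraries titled siCTL, from cells given a non-targeting siRNA. Cells of both groups received 10 pmol of siRNA in a lipid reagent and were harvested after 48 h, and the series is titled as a study of TET3 expression in macrophages. Since the treatment field reads siTET3 in every sample, the groups were taken from the titles. No label says that replicates were separate cultures, so p-values speak only of the spread among these 6 libraries, which could be technical.

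Complexes I and II feed electrons from NADH and succinate to ubiquinone, complex III passes them to cytochrome c, and complex IV reduces oxygen. Complexes I, III and IV pump protons, and complex V uses the gradient to make ATP. All subunits of complex II and most subunits of the others are nuclear genes, while a small core of complexes I, III, IV and V is encoded in mitochondrial DNA. In macrophages, the balance between glycolysis and this chain is known to shift with activation state.

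Promoter sequence was set beside the members because the transcription factors NRF1, GABP and YY1 are known regulators of respiratory chain genes. RefSeq promoter windows (GRCm38.p6, 250 bases before and 50 after each start) were matched to 69 of the 84 members. An NRF1-like motif, GCGCA and GCGC with any base between them, occurred on either strand in 24.6% of the 69 members and in 5.19% of the 27025 genes with a window. CCGGAAG, an ETS or GABP-like motif, occurred in 23.2% of members and 9.93% of all genes, and a YY1-like motif, AAGATG directly followed by GCG, in 11.6% and 1.64%. At least 1 of these 3 motifs was found in 35 of the 69 members (50.7%), against 15.1% of all genes, whereas TATAAA was found in 10.1% of members and 15.7% of all genes. Windows of members had a median GC content of 57.3%, against 52.7% for all windows, and its part in these shares was not tested. A match describes the letters and no binding was measured. The 250 bases before the start are shown 5′ to 3′ on the gene's strand, with motif matches in capitals. They are given for a complex IV gene and a complex II gene that hold 2 kinds of motif, and for Ndufa13. Ndufa13, a complex I gene called lower below only in fits that leave out 1 library, held none of the 4 motifs in these bases.
Cox6a1: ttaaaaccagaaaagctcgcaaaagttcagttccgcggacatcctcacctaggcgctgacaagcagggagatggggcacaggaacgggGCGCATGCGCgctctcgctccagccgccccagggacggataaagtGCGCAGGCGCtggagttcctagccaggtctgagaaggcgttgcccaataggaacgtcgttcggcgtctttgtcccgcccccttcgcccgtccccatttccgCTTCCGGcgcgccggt
Sdhd: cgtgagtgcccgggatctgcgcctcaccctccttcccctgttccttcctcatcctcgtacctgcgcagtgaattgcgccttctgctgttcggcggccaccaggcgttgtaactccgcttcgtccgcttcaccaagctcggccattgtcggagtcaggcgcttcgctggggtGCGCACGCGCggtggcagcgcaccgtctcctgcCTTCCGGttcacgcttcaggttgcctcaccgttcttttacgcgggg
Ndufa13: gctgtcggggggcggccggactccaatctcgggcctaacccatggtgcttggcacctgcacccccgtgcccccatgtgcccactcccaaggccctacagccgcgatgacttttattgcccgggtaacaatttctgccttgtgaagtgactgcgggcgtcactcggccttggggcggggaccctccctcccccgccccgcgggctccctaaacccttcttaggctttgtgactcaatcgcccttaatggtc
These stretches lie at chr5:115348959-115349208, minus strand, for Cox6a1, at chr9:50603850-50604099, minus strand, for Sdhd, and at chr8:69902021-69902270, minus strand, for Ndufa13. The start used is that of RefSeq. For Ndufa13 the whole stretch lies inside the GENCODE span of the gene (69894180-69902558), and the bases before the GENCODE start were not searched for motifs. In Cox6a1 and Sdhd the NRF1-like letters lie farther from the start than the ETS-like letters, which stand on the opposite strand as CTTCCGG. The motifs share no letters with each other, and the farther NRF1-like match in Cox6a1 fits on both strands.

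The targeted gene, Tet3, which encodes an oxidase of methylated cytosine in DNA, did not differ detectably by label. It had 1939, 1980.4 and 1950.4 normalised reads in the siTET3-labelled libraries, against 2171, 1911 and 2027 in the siCTL-labelled libraries, here and throughout in the order of replicates 1, 2 and 3. The difference was a log2 change of -0.06 (95% interval -0.26 to 0.15, limma adjusted p = 0.699; exact two-sided permutation p = 0.4, where 3 against 3 allows no less than 0.1). Without siCTL replicate 2 the change was -0.10 (-0.24 to 0.04, limma adjusted p = 0.354). All siTET3-labelled libraries then lay below siCTL replicates 1 and 3, as in 20.6% of all genes. With all libraries scaled by size alone the change reversed to 0.03. The groups are therefore named by their labels throughout, and each direction given is one between labels. The libraries held between 29587171 and 61709131 reads. In siCTL replicate 2, genes lay far from the other control libraries in both directions: it was the highest of the 6 libraries for 4542 and the lowest for 4536 of 11591 genes tested. All 9 macrophage markers checked were detected in every library but for the second of 2 rows for Itgam, with sums from 465513 to 498521 in the siTET3-labelled libraries and from 463606 to 550013 in the siCTL-labelled libraries. The 5 fibroblast markers summed to between 7.13 and 11.5 in the siTET3-labelled libraries and between 8.10 and 540 in the siCTL-labelled libraries, where the top value was that of siCTL replicate 2 (Col1a2 286, Col3a1 144, Pdgfra 109, with Col1a1 at 0 in all 6). Their part in the results was not tested, so the main results are given with and without that library. A value given once is from all 6 libraries unless said otherwise. The T cell, B cell, epithelial and endothelial lists summed to at most 13.1 in any library.

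Across the respiratory chain no member changed past the threshold with all 6 libraries, and most members had a small negative log2 change (siTET3 over siCTL). Of the 84 members, 79 had a mean of at least 10 normalised reads and were tested with limma on log2(value + 1). None was called at an adjusted p of 0.05 in either direction, against 0.354% of all genes tested. edgeR and DESeq2 on the recovered reads also called 0 members, against 0.345% and 3.74% of all genes, and among 79 members in the authors' deposited table none had an adjusted p under 0.05, against 2.94% of genes with one, the lowest being 0.0621 for Ndufa13. At an unadjusted p under 0.05 there were 9 members, or 11.4%, against 13.2% of all genes. Negative log2 changes were found for 52 of the 79 members (65.8%) and for 50.7% of all genes, with medians of -0.13 and -0.005. Scaled by library size alone, 46 of 79 members and 4612 of 11586 genes were negative, with medians of -0.05 and 0.08. In 23 members (29.1%) every siTET3-labelled library lay below every siCTL-labelled library, against 15.5% of all genes, and in 3 members (3.80%) every one lay above, against 16.1%. These counts describe the members as a list and were not tested. In bulk RNA, fewer cells of a type and less RNA per cell cannot be told apart.

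Without siCTL replicate 2, a complex I pair fell past the threshold, Ndufa13 and Ndufa2. That is 2 of 79 members (2.53%), against 1.06% of all genes called lower and 1.7% called higher, and no member was called higher. The median over members was then -0.07, against 0.008 over all genes, with 58 of 79 members negative. Groups did not overlap in 27 members on the lower side and 3 on the higher side, or 34.2% and 3.80%, against 20.6% and 21.2% of all genes. edgeR without that library called the same 2 members, against 2.68% of all genes called lower. DESeq2 without it called 6 members lower (Ndufa13, Ndufa2, Ndufv1, Ndufb9, Cox7a2l and Atp5d), or 7.59%, against 4.43% of all genes.

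**Figure D1:**
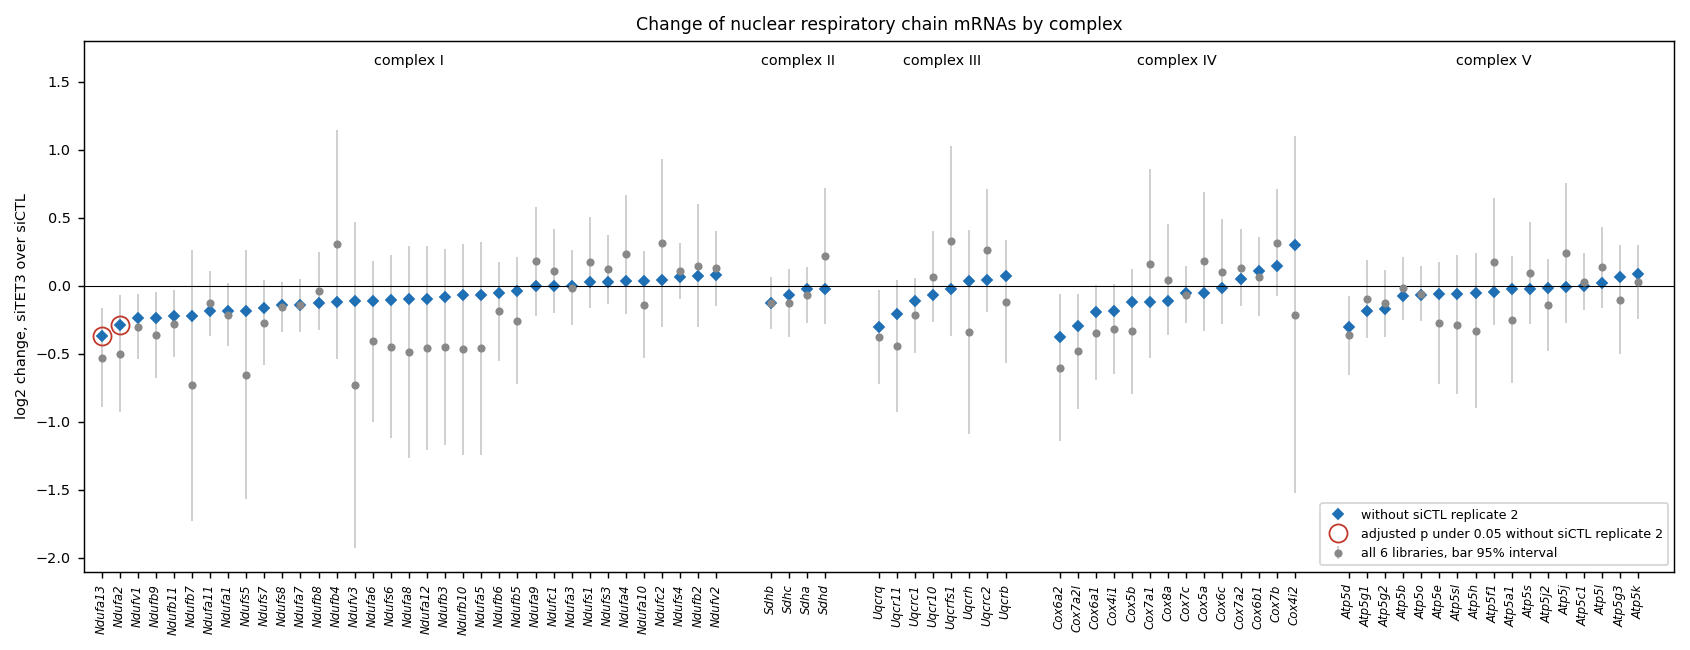
Log2 change of 78 of the 79 tested members (vertical axis, siTET3 over siCTL), grouped by complex and ordered by the change without siCTL replicate 2. Grey points with 95% intervals use all 6 libraries, blue diamonds leave out siCTL replicate 2, and red rings mark Ndufa13 and Ndufa2, called lower in that fit; the diamonds span -0.38 to 0.30.

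Complex I members had the lowest median of the 5 complexes with all libraries, without a test between complexes. Its 36 tested members had a median log2 change of -0.24, with 26 negative and 10 positive, and -0.10 without siCTL replicate 2, with 25 negative. Groups did not overlap on the lower side in 14 members (38.9%) and on the higher side in 1 (2.78%), against 15.5% and 16.1% of all genes. The 28 accessory subunits among them had a median of -0.27 (-0.10 without siCTL replicate 2).

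Ndufa13 (ENSMUSG00000036199.9, chr8:69894180-69902558, minus strand, GRCm38), an accessory subunit also known as GRIM-19, had 3938, 3824 and 3567 normalised reads in the siTET3-labelled libraries, against 4782, 6814 and 4955 in the siCTL-labelled libraries. All 3 siTET3-labelled libraries lay below all 3 siCTL-labelled libraries, among which replicate 2 was the highest. Its mean was 3776 ± 189.8 in the siTET3-labelled libraries and 5517 ± 1127 in the siCTL-labelled libraries (SD, n = 3 each). Ndufa13 had a log2 change of -0.53 (95% interval -0.89 to -0.16, limma adjusted p = 0.309), and of -0.37 (-0.51 to -0.22, limma adjusted p = 0.0333) without siCTL replicate 2. With the trend on exon base content removed as well, the change was -0.18 (limma adjusted p = 0.113). Exons of Tssk6, on the opposite strand, share 30.0% of its exon bases, and with no statement that counting was strand-aware their reads cannot be told apart, but Tssk6 itself had between 11.4 and 24.5 normalised reads in the 6 libraries.

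Ndufa2 (ENSMUSG00000014294.4, chr18:36742332-36744557, minus strand), an accessory subunit with a thioredoxin-like fold, had 2812, 2835 and 2758 normalised reads in the siTET3-labelled libraries, against 3492, 5277 and 3365 in the siCTL-labelled libraries. The siTET3-labelled libraries lay close together and did not overlap the siCTL-labelled libraries, of which replicate 2 stood far above the other two. Ndufa2 had a log2 change of -0.50 (-0.93 to -0.07, limma adjusted p = 0.356), and -0.29 (-0.42 to -0.17, limma adjusted p = 0.0424) without replicate 2. It kept that call with the base-content trend also removed, at -0.27 (limma adjusted p = 0.0429). Tmco6 on the opposite strand shares 11.5% of its exon bases and had between 723 and 1234 normalised reads.

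Ndufv1 (ENSMUSG00000037916.13, chr19:4007384-4012806, minus strand), the core subunit that binds NADH and flavin, had 6459.9, 6410.3 and 5839.8 normalised reads in the siTET3-labelled libraries, against 7177, 8376 and 7509 in the siCTL-labelled libraries. The groups did not overlap, and all siCTL-labelled libraries were higher. Ndufv1 had a log2 change of -0.30 (95% interval -0.54 to -0.06), and of -0.24 (-0.39 to -0.08) without siCTL replicate 2. Without that library it was called by DESeq2 (adjusted p = 0.0230) and not by limma (adjusted p = 0.104). Ndufb9 (ENSMUSG00000022354.3, chr15:58933756-58939488, plus strand), an accessory subunit of the membrane arm, had 3302, 3371 and 3485 normalised reads in the siTET3-labelled libraries, against 4205, 5206 and 3777 in the siCTL-labelled libraries. Again the groups did not overlap, with replicate 2 the highest. Ndufb9 had a log2 change of -0.36 (95% interval -0.68 to -0.05), and of -0.24 (-0.39 to -0.08) without siCTL replicate 2. DESeq2 without replicate 2 gave an adjusted p of 0.0354 and limma gave 0.108. Part of its exon sequence (19.5%) is shared with the same-strand gene Gm49356.

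**Figure D2:**
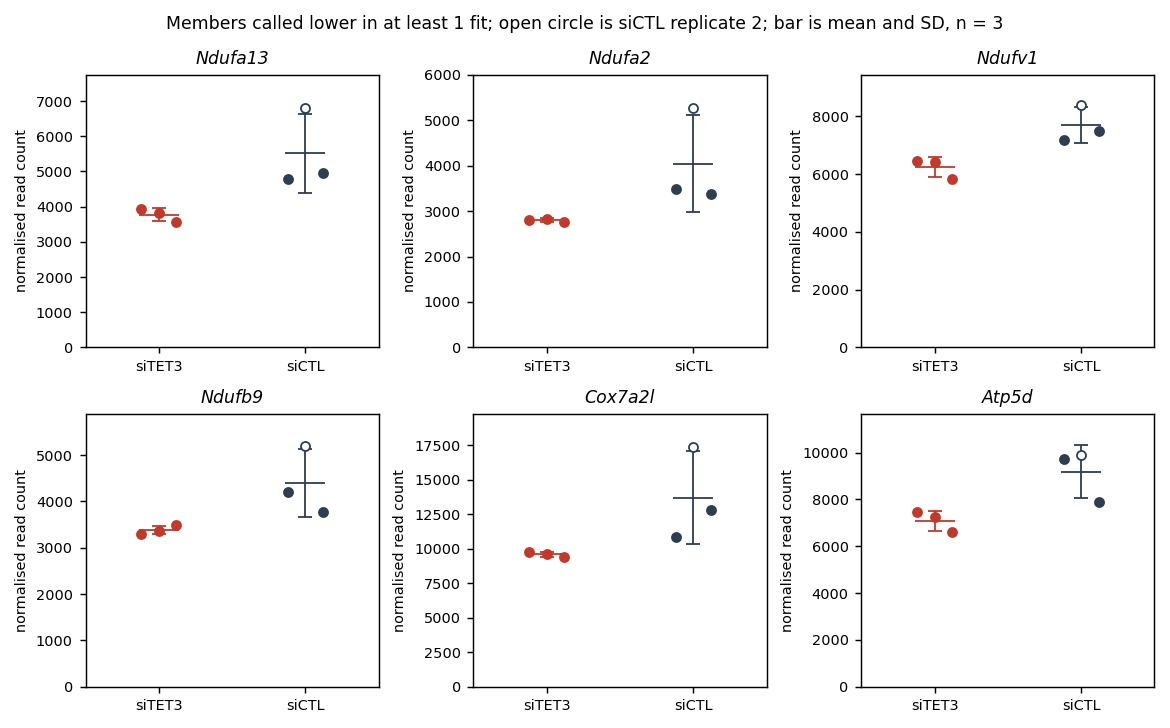
Normalised read counts (vertical axis from 0) in each library for the 6 members called lower in at least 1 fit without siCTL replicate 2. Points are libraries, the open circle is siCTL replicate 2, and bars give mean and SD (n = 3). In every panel the 3 siTET3-labelled libraries lie below all siCTL-labelled libraries, as for Ndufa13 at 3567 to 3938 against 4782 to 6814. Groups were apart on that side in 15.5% of all genes. The panels were chosen by calls in these same libraries, so their separation is not further evidence.

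Other core subunits with groups apart on the lower side included Ndufs7 and Ndufs8, which hold iron-sulphur clusters, with log2 changes of -0.27 and -0.16 (-0.16 and -0.14 without siCTL replicate 2). Ndufs1, Ndufs3 and Ndufv2, also core subunits, had 0.17, 0.12 and 0.13 (0.03, 0.03 and 0.08). Core subunits thus had point estimates of both signs, with and without that library. Ndufs4, an accessory subunit whose loss causes a Leigh-like disease in mice, was the complex I member with groups apart on the higher side, at 3881, 3870.02 and 4051 normalised reads in the siTET3-labelled libraries, against 3795, 3409.7 and 3746 in the siCTL-labelled libraries, and its log2 change was 0.11 (-0.10 to 0.32). None of these 6 was called in any fit. A further 7 accessory subunits had groups apart on the lower side (Ndufb7, Ndufs5, Ndufs6, Ndufa6, Ndufb11, Ndufa1 and Ndufa7), with log2 changes from -0.73 in Ndufb7 to -0.14 in Ndufa7, and from -0.22 in Ndufb11 to -0.11 in Ndufs6 without siCTL replicate 2. Another 14 accessory subunits had overlapping groups and log2 changes from -0.49 in Ndufa8 to 0.18 in Ndufa9. Without siCTL replicate 2 these ran from -0.19 in Ndufa11 to 0.07 in Ndufb2.

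The most positive log2 change among complex I members was that of Ndufc2, a small membrane-arm subunit, with 3145, 3081 and 2997 normalised reads in the siTET3-labelled libraries, against 3574, 1692 and 2494 in the siCTL-labelled libraries. The groups overlapped, and siCTL replicate 2 was the lowest library. Ndufc2 had a log2 change of 0.31 (95% interval -0.30 to 0.93), and of 0.04 (-0.29 to 0.37) without siCTL replicate 2. Ndufa4, which carries a complex I symbol but is now placed in complex IV, had the highest level per kb of exon in this symbol group, at 9183 ± 436 normalised reads per kb of exon in the siTET3-labelled libraries and 7983 ± 1912 in the siCTL-labelled libraries (SD, n = 3 each). It had 5419, 5924 and 5847 normalised reads in the siTET3-labelled libraries, against 6094, 3721 and 5129 in the siCTL-labelled libraries. The groups overlapped, with replicate 2 again the lowest. Ndufa4 had a log2 change of 0.23 (95% interval -0.21 to 0.67), and of 0.03 (-0.17 to 0.24) without siCTL replicate 2. Its paralogue Ndufa4l2, known to be induced in hypoxia, had 0, 0 and 2.55 normalised reads in the siTET3-labelled libraries, against 4.63, 17.7 and 6.97 in the siCTL-labelled libraries. It lay at or under the value of 3 reads in every siTET3-labelled library and above it in every siCTL-labelled library, and its mean was under the limit of 10 for testing.

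Complex II, succinate dehydrogenase, had the fewest members and the narrowest range of log2 changes, and all 4 of its subunits are nuclear. The median log2 change was -0.10, and -0.05 without siCTL replicate 2, and no member was called in any fit. Sdha, the flavoprotein that oxidises succinate, had 11272, 11824 and 11443 normalised reads in the siTET3-labelled libraries, against 11568, 12749.7 and 11897 in the siCTL-labelled libraries. The groups overlapped, and the log2 change was -0.07 (-0.03 without replicate 2). Sdhb, the iron-sulphur subunit, had 6027, 6201 and 6521 normalised reads in the siTET3-labelled libraries, against 6804, 6828 and 6809 in the siCTL-labelled libraries. Here the groups did not overlap, and the 3 siCTL-labelled libraries were close to each other. Sdhb had a log2 change of -0.13 (95% interval -0.32 to 0.07), and of -0.12 (-0.26 to 0.01) without siCTL replicate 2.

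The membrane anchors of complex II, which hold the ubiquinone site and a haem, lay at opposite ends of the 6 libraries in siCTL replicate 2. Sdhc had 6372, 6637 and 5940.4 normalised reads in the siTET3-labelled libraries, against 7053, 7459 and 6225 in the siCTL-labelled libraries. The groups overlapped, since siCTL replicate 3 lay among the siTET3-labelled libraries. Sdhc had a log2 change of -0.13 (95% interval -0.38 to 0.12), and of -0.07 (-0.25 to 0.11) without siCTL replicate 2. Sdhd had 9595, 9819 and 9252 normalised reads in the siTET3-labelled libraries, against 10184, 5871 and 9261 in the siCTL-labelled libraries. Its siCTL replicate 2 was far below the other 5 libraries, and the groups overlapped. Sdhd had a log2 change of 0.22 (95% interval -0.28 to 0.72), and of -0.02 (-0.17 to 0.12) without siCTL replicate 2. Sdhd had the highest level per kb of the complex, at 7762 ± 232 normalised reads per kb of exon in the siTET3-labelled libraries and 6855 ± 1845 in the siCTL-labelled libraries (SD, n = 3 each).

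Complex III had members on both sides of 0, and no call in any fit. Its 8 members had a median log2 change of -0.17, and -0.04 without siCTL replicate 2, and ranged from -0.44 to 0.33. Uqcrc1 and Uqcrc2, the core proteins, went opposite ways in point estimate. Uqcrc1 had 10837, 10421 and 10045 normalised reads in the siTET3-labelled libraries, against 11412, 13997 and 11148 in the siCTL-labelled libraries. Every siTET3-labelled library lay below every siCTL-labelled library. Uqcrc1 had a log2 change of -0.22 (95% interval -0.49 to 0.06), and of -0.11 (-0.25 to 0.02) without siCTL replicate 2. Uqcrc2 had 11872, 11858 and 12022 normalised reads in the siTET3-labelled libraries, against 11549.8, 7356 and 11614 in the siCTL-labelled libraries. Every siTET3-labelled library was higher than every siCTL-labelled library, of which replicate 2 was far the lowest. Uqcrc2 had a log2 change of 0.26 (95% interval -0.19 to 0.71), and of 0.04 (-0.07 to 0.16) without siCTL replicate 2.

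Uqcrfs1, the Rieske iron-sulphur protein, had 5679, 5464 and 5608 normalised reads in the siTET3-labelled libraries, against 6150.5, 2737 and 5219 in the siCTL-labelled libraries. Replicate 2 of siCTL was far below the other 5 libraries, and the groups overlapped. Uqcrfs1 had a log2 change of 0.33 (95% interval -0.37 to 1.03), and of -0.02 (-0.20 to 0.16) without siCTL replicate 2. Uqcrh, the hinge protein that contacts cytochrome c1, had the highest level per kb in the complex, at 19836 ± 345 normalised reads per kb of exon in the siTET3-labelled libraries and 27051 ± 13258 in the siCTL-labelled libraries (SD, n = 3 each). It had 10726, 10758 and 11067 normalised reads in the siTET3-labelled libraries, against 9505, 23064 and 11823 in the siCTL-labelled libraries. Here replicate 2 was far above the others, and the groups overlapped. Uqcrh had a log2 change of -0.34 (95% interval -1.09 to 0.41), and of 0.03 (-0.19 to 0.25) without siCTL replicate 2. The annotation holds 2 named pseudogenes of Uqcrh, so its reads may be split. Over all members it holds 6 such pseudogenes for 4 members, which also include Atp5l, Atp5c1 and Atp5k of complex V. Only pseudogenes named after the member's symbol were counted.

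Small subunits of complex III included those with the lowest p in the complex. Uqcrq, a small membrane subunit, had 9151, 8977 and 7172 normalised reads in the siTET3-labelled libraries, against 11326, 12038 and 9449 in the siCTL-labelled libraries. The groups did not overlap, and siTET3 replicate 3 was the lowest of all 6 libraries. Uqcrq had a log2 change of -0.38 (95% interval -0.72 to -0.03), and of -0.30 (-0.60 to -0.004) without siCTL replicate 2. Uqcr11 had 2908, 3069 and 3219.7 normalised reads in the siTET3-labelled libraries, against 3416, 5753 and 3664 in the siCTL-labelled libraries. Groups were again apart, with siCTL replicate 2 the highest. Uqcr11 had a log2 change of -0.44 (95% interval -0.93 to 0.04), and of -0.21 (-0.37 to -0.05) without siCTL replicate 2. The other members, Uqcrb and Uqcr10, had log2 changes of -0.12 and 0.07 with overlapping groups. Both turned sign without siCTL replicate 2, to 0.07 and -0.07.

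Complex IV, cytochrome c oxidase, has tissue isoforms for several nuclear subunits, and the broadly expressed forms predominated. Of 18 members, Cox6b2, Cox7b2, Cox8b and Cox8c had 0 reads in every library, where 3 reads would be 1.90 to 3.82 normalised units. Cox6b2, Cox7b2 and Cox8c are known from testis and Cox8b from heart and muscle. The 14 tested members had a median log2 change of -0.01, with 7 of each sign, and -0.08 without siCTL replicate 2, but 0.07 with all libraries scaled by size alone. None was called with all libraries.

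Cox7a2l (ENSMUSG00000024248.13, chr17:83501918-83517330, minus strand), a factor that joins complexes III and IV into supercomplexes, had 9789, 9599 and 9439 normalised reads in the siTET3-labelled libraries, against 10853, 17403 and 12821 in the siCTL-labelled libraries. The siTET3-labelled libraries lay close together and below all siCTL-labelled libraries, of which replicate 2 was far the highest. Its mean was 9609 ± 175 in the siTET3-labelled libraries and 13692 ± 3361 in the siCTL-labelled libraries (SD, n = 3 each). Cox7a2l had a log2 change of -0.48 (-0.90 to -0.06, limma adjusted p = 0.359), and -0.30 (-0.48 to -0.11, limma adjusted p = 0.0977) without replicate 2. DESeq2 without that library called it (adjusted p = 0.00578). With the base-content trend removed as well, limma called it at -0.31 (adjusted p = 0.0463), beside Ndufa2, against 1.41% of all genes called lower. Of its relatives that sit in complex IV itself, the broadly expressed Cox7a2 had 5169.7, 5655 and 5639.96 normalised reads in the siTET3-labelled libraries, against 5726, 4442 and 4926 in the siCTL-labelled libraries, and the muscle form Cox7a1 had 87.6, 88.3 and 77.7 normalised reads in the siTET3-labelled libraries, against 109, 50.7 and 77.3 in the siCTL-labelled libraries. Both overlapped between groups, with log2 changes of 0.13 and 0.16 (0.05 and -0.12 without replicate 2). Per kb of exon Cox7a2 was 42.7 to 71.2 times as high as Cox7a1 in the 6 libraries.

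Cox6a1, the broadly expressed form of subunit 6a whose promoter is shown above, had 6949, 6431 and 6549 normalised reads in the siTET3-labelled libraries, against 7358, 10399 and 7825 in the siCTL-labelled libraries. Libraries of the siTET3 label were all lower. Cox6a1 had a log2 change of -0.34 (95% interval -0.69 to 0.004), and of -0.19 (-0.34 to -0.05) without siCTL replicate 2. Cox6a2, the heart and muscle form, had 407, 389.9 and 412 normalised reads in the siTET3-labelled libraries, against 441, 833 and 623 in the siCTL-labelled libraries. Its groups did not overlap either, but the siCTL-labelled libraries spread widely. Cox6a2 had a log2 change of -0.60 (95% interval -1.14 to -0.06), and of -0.38 (-0.73 to -0.02) without siCTL replicate 2. Per kb of exon Cox6a1 was 14.9 to 20.4 times as high as Cox6a2. Exons of Itgad, on the opposite strand, share 10.3% of the exon bases of Cox6a2.

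Cox4i1, the common form of the largest nuclear subunit, had the highest level per kb in complex IV, at 21367 ± 997 normalised reads per kb of exon in the siTET3-labelled libraries and 26890.4 ± 4559.8 in the siCTL-labelled libraries (SD, n = 3 each). It had 16758, 16815 and 15466 normalised reads in the siTET3-labelled libraries, against 19353, 24505 and 17855 in the siCTL-labelled libraries. No siTET3-labelled library reached the lowest siCTL-labelled library. Cox4i1 had a log2 change of -0.32 (95% interval -0.65 to 0.01), and of -0.19 (-0.35 to -0.03) without siCTL replicate 2. Cox4i2, a lung and hypoxia-linked form, had 18.3, 12.3 and 16.6 normalised reads in the siTET3-labelled libraries, against 9.26, 38 and 16.5 in the siCTL-labelled libraries. It was low everywhere and its groups overlapped, with a log2 change of -0.21 (-1.53 to 1.10) that turned to 0.30 without replicate 2. Per kb, Cox4i1 was 664 to 2153 times as high.

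**Figure D3:**
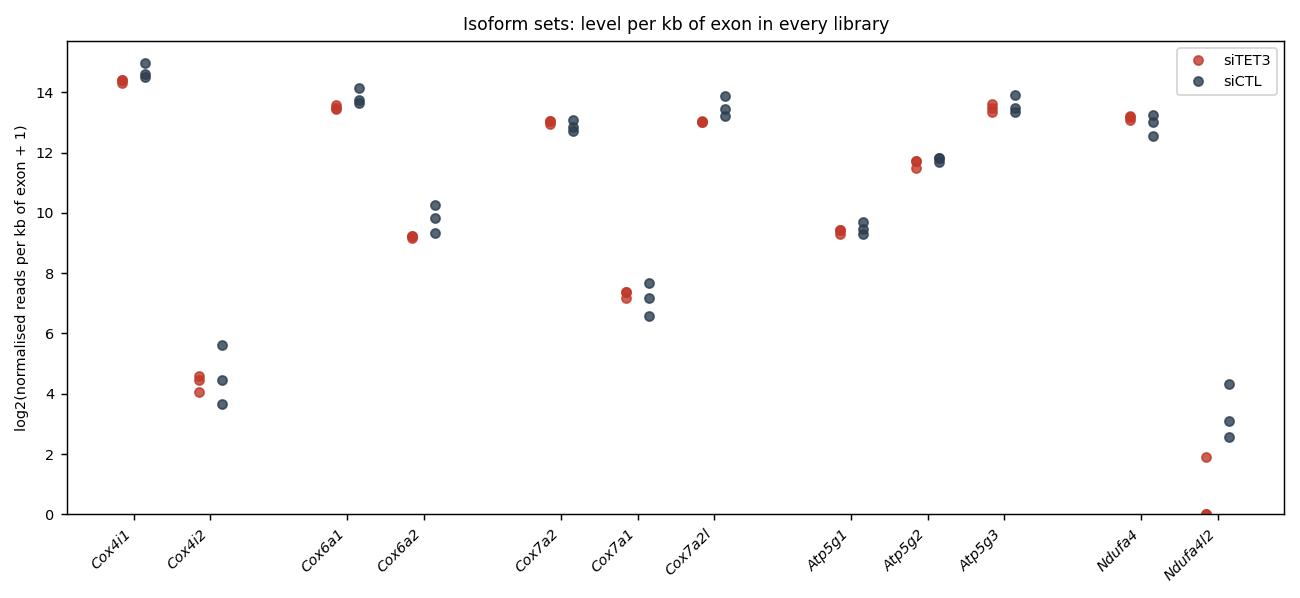
Level of isoform sets in each library, as log2(normalised reads per kb of exon + 1), with siTET3-labelled libraries in red left of siCTL-labelled libraries in dark blue. Each point is a library; the gap between Cox4i1 and Cox4i2 or Cox7a2 and Cox7a1 is far wider than any gap between the groups.

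Of the remaining isoform sets of complex IV, Cox7b had 8229, 8802 and 8199 normalised reads in the siTET3-labelled libraries, against 8142, 5324 and 7099.8 in the siCTL-labelled libraries. It was the complex IV member with groups apart on the higher side, and siCTL replicate 2 was far the lowest. Cox7b had a log2 change of 0.32 (95% interval -0.08 to 0.71), and of 0.14 (-0.03 to 0.32) without siCTL replicate 2. Cox6b1, which bridges the dimer, had 8292, 9027 and 9873 normalised reads in the siTET3-labelled libraries, against 7588, 9173 and 9249.6 in the siCTL-labelled libraries. The groups overlapped, and the log2 change was 0.07 (0.11 without replicate 2). Cox8a, the common form of the smallest subunit, had 10058, 9889 and 7919 normalised reads in the siTET3-labelled libraries, against 10448, 7246 and 9503 in the siCTL-labelled libraries. These overlapped too, with 0.04 and -0.11. Cox5a, Cox5b, Cox6c and Cox7c, each present as a single form here, had log2 changes from -0.33 to 0.18 with overlapping groups. Without siCTL replicate 2 they ran from -0.12 in Cox5b to -0.02 in Cox6c, and those of Cox5a and Cox6c turned from positive to negative.

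Complex V took the largest share of reads among the 5 complexes, between 0.508% and 0.518% of each siTET3-labelled library and between 0.511% and 0.534% of each siCTL-labelled library, a share not scaled by gene length. The 17 members had a median of -0.10, and -0.05 without siCTL replicate 2, with 11 and 14 negative. Groups were apart on the lower side in 1 member, Atp5d, with all libraries, and in 4 (also Atp5b, Atp5g1 and Atp5g2) without replicate 2, or 5.88% and 23.5%, against 15.5% and 20.6% of all genes. Atp5s and Atp5sl are not subunits of the enzyme and are counted here by the stem of their symbols alone. These and Atp5o, Atp5f1, Atp5j2, Atp5l and Atp5k had log2 changes from -0.29 in Atp5sl to 0.18 in Atp5f1, all with overlapping groups. Without siCTL replicate 2 their changes ran from -0.07 in Atp5o to 0.08 in Atp5k, and that of Atp5f1 was -0.05. Exon bases shared with other annotated genes, where the assignment of reads is uncertain, occur in 29 of the 84 members and reach 47.9% in Atp5o. The partners of Atp5o include a second same-strand entry of that name, beside D430001F17Rik and Gm15976 on the opposite strand.

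Atp5d (ENSMUSG00000003072.15, chr10:80138632-80145818, plus strand), the delta subunit of the central stalk, had 7440.2, 7227 and 6618 normalised reads in the siTET3-labelled libraries, against 9735, 9914 and 7879.9 in the siCTL-labelled libraries. Its groups were apart, with siCTL replicate 3 below the other two of its label. Atp5d had a log2 change of -0.37 (95% interval -0.65 to -0.08), and of -0.31 (-0.54 to -0.07) without siCTL replicate 2. Without that library DESeq2 called it (adjusted p = 0.0260) and limma did not (adjusted p = 0.144). Atp5e, the epsilon subunit beside it, had 3359, 3613 and 3548 normalised reads in the siTET3-labelled libraries, against 3883, 5678 and 3454 in the siCTL-labelled libraries. Its groups overlapped, and siCTL replicate 2 was the highest. Atp5e had a log2 change of -0.27 (95% interval -0.72 to 0.18), and of -0.06 (-0.23 to 0.10) without siCTL replicate 2. The gamma subunit gene of the stalk, Atp5c1, had a log2 change of 0.03 (-0.18 to 0.24), and of -0.001 without siCTL replicate 2.

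Atp5b, the catalytic beta subunit, had the highest level per kb among all 79 members, at 28778 ± 518 normalised reads per kb of exon in the siTET3-labelled libraries and 29210 ± 2038 in the siCTL-labelled libraries (SD, n = 3 each). It had 55128, 56137 and 54151 normalised reads in the siTET3-labelled libraries, against 57158, 51604 and 59137 in the siCTL-labelled libraries. The groups overlapped through siCTL replicate 2, which was the lowest. Atp5b had a log2 change of -0.02 (95% interval -0.25 to 0.21), and of -0.08 (-0.23 to 0.08) without siCTL replicate 2. Atp5a1, the alpha subunit, had log2 changes of -0.25 and -0.03 in the same fits. In the peripheral stalk, Atp5h had 6106, 6213 and 6178 normalised reads in the siTET3-labelled libraries, against 5885, 11401 and 6962 in the siCTL-labelled libraries. The groups overlapped, with replicate 2 far the highest. Atp5h had a log2 change of -0.33 (95% interval -0.90 to 0.24), and of -0.05 (-0.24 to 0.13) without siCTL replicate 2. Atp5j, coupling factor 6 of the same stalk, had 5242, 5181 and 5808 normalised reads in the siTET3-labelled libraries, against 5628, 3239.99 and 5248 in the siCTL-labelled libraries. Its replicate 2 was instead far the lowest, so that Atp5h and Atp5j, partners in 1 structure, deviated in opposite directions in that library. Atp5j had a log2 change of 0.24 (95% interval -0.28 to 0.76), and of -0.01 (-0.18 to 0.16) without siCTL replicate 2. Exons of Gabpa on the opposite strand share 12.7% of the exon bases of Atp5j.

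Atp5g1, Atp5g2 and Atp5g3 encode the same mature c subunit of the membrane ring. Atp5g1 had 3103, 3361 and 3375 normalised reads in the siTET3-labelled libraries, against 3444, 3088 and 4047 in the siCTL-labelled libraries. Atp5g2 had 5702, 5693 and 4833 normalised reads in the siTET3-labelled libraries, against 6015, 5574 and 6136 in the siCTL-labelled libraries. Atp5g3 had 8348, 9034 and 7607 normalised reads in the siTET3-labelled libraries, against 8354, 11279 and 7524 in the siCTL-labelled libraries. In each of the 3 genes the groups overlapped, and the log2 changes were -0.10, -0.13 and -0.10 (-0.19, -0.17 and 0.07 without replicate 2). Per kb of exon, Atp5g3 was 12.6 to 24.8 times and Atp5g2 4.20 to 5.39 times as high as Atp5g1 across the 6 libraries, so that Atp5g3 came first, Atp5g2 next and Atp5g1 last in each. These ratios depend on the annotated exon unions, of 4912 bases in Atp5g1, 1675 in Atp5g2 and 724 in Atp5g3. The reads above gave the same order in each library with much narrower gaps. The levels of the 3 genes did not overlap.

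How far siCTL replicate 2 stood from the other control libraries varied from member to member, and within each complex. It was the highest of the 6 libraries in 43 of the 79 members and the lowest in 27, and the log2 difference from the mean of siCTL replicates 1 and 3 ran from -1.26 in Ndufb4 to 1.84 in Ndufv3. Ndufv3, an accessory subunit of the NADH module, had 2785, 2852 and 2835 normalised reads in the siTET3-labelled libraries, against 2650.5, 10987 and 3527 in the siCTL-labelled libraries. Ndufb4, of the membrane arm, had 2224, 2131 and 1947 normalised reads in the siTET3-labelled libraries, against 2571, 947 and 2014 in the siCTL-labelled libraries. Subunits of 1 complex thus lay on opposite sides in the same library. The coefficient of variation over replicates had a median of 4.84% in the siTET3-labelled libraries and 20.4% in the siCTL-labelled libraries, or 6.71% in siCTL replicates 1 and 3, without replicate 2. Across the 79 members, the exon GC content correlated with the deviation of replicate 2 (Pearson r = 0.30), with the log2 change of all libraries (r = -0.46) and with that without replicate 2 (r = -0.49). Over 11529 genes these were 0.35, -0.46 and -0.31. The members share libraries and base composition, so r is a description. With a trend on GC content removed, the medians of complexes I to V were -0.17, -0.04, -0.11, -0.01 and -0.07, and -0.07, -0.06, -0.05, -0.04 and -0.01 without replicate 2 as well.

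**Figure D4:**
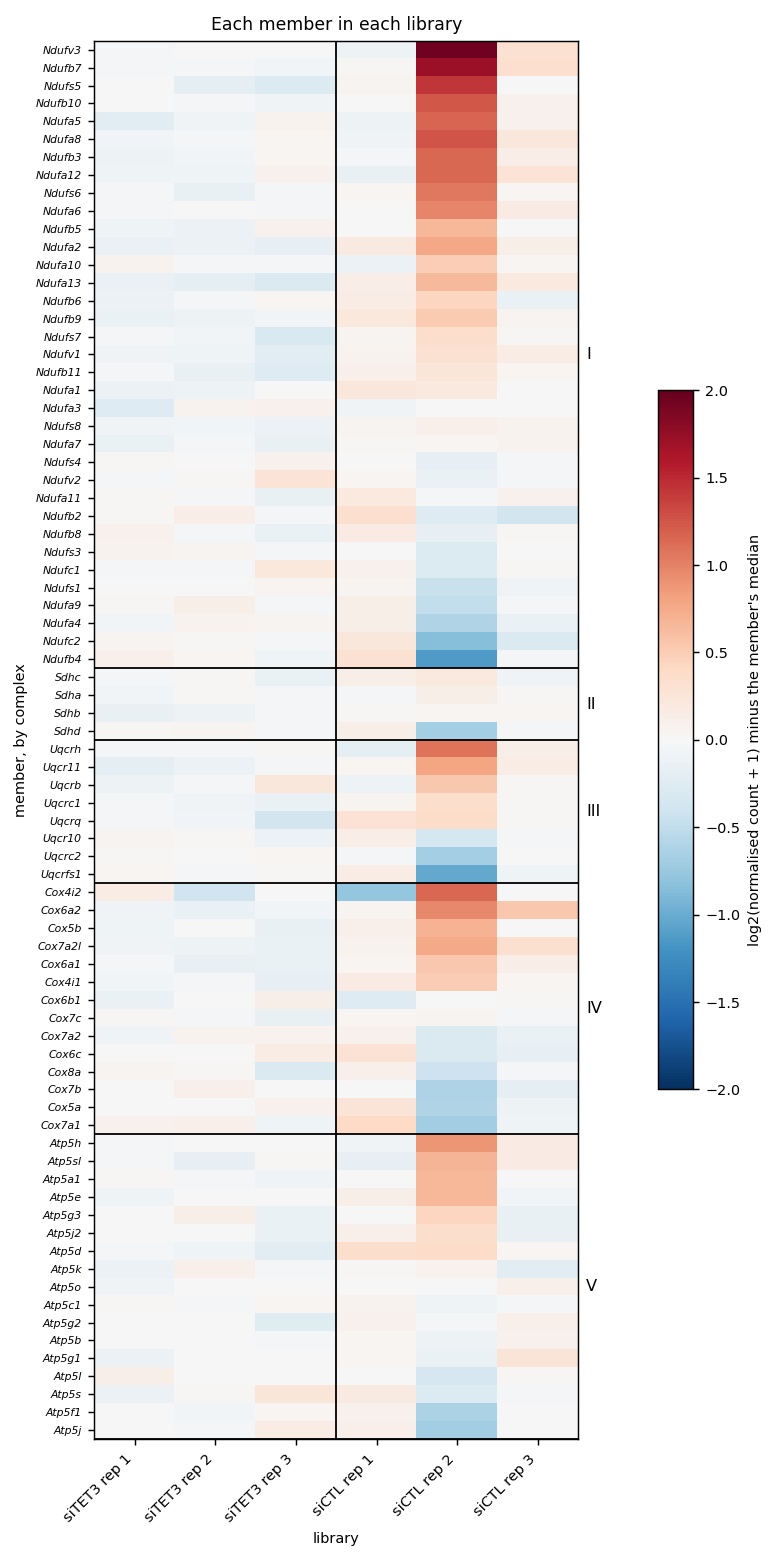
The level of 78 of the 79 tested members (rows, by complex) in each library (columns), as log2(normalised count + 1) minus the member's median over the 6 libraries; red is above and blue below that median. The column of siCTL replicate 2 holds most of the strong colour, from Ndufv3 at the top of complex I to Ndufb4 at its foot.

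The 13 mitochondrially encoded subunits of complexes I, III, IV and V had positive log2 changes in all 13 cases under each of the scalings tried. The siTET3-labelled libraries lay above all siCTL-labelled libraries in 10 of 13, against 16.1% of all genes. The 13 share libraries and a low GC content, so these counts describe them as a list and were not tested. With the GC trend removed, 11 were positive with all libraries and 9 without siCTL replicate 2. With all libraries limma and edgeR called none of the 13, and DESeq2 called mt-Nd6 higher (adjusted p = 0.0292), against 1.85% of all genes. Their median log2 change was 1.10, and 0.53 without siCTL replicate 2, which was the lowest library for 12 of the 13. mt-Nd2, a proton-pumping subunit of complex I, had 52756, 47399.8 and 43864 normalised reads in the siTET3-labelled libraries, against 32922, 10475 and 32377 in the siCTL-labelled libraries. All siTET3-labelled libraries were higher, and siCTL replicate 2 was far the lowest. mt-Nd2 had a log2 change of 1.10 (95% interval 0.04 to 2.16), and of 0.55 (0.34 to 0.76) without siCTL replicate 2. Without that library limma called it alone of the 13 higher (adjusted p = 0.0282), against 1.7% of all genes. In that setting edgeR called 4 of the 13 higher (mt-Nd2, mt-Nd6, mt-Co2 and mt-Nd1), against 2.73% of all genes, and DESeq2 called 7 (also mt-Nd4l, mt-Nd4 and mt-Atp8), against 4.64%. With the GC trend also removed, limma called none. mt-Nd6 had 6927, 5832 and 4923 normalised reads in the siTET3-labelled libraries, against 3854, 3088 and 4257 in the siCTL-labelled libraries. These groups were apart too, with a log2 change of 0.66 (limma adjusted p = 0.282; 0.53 without siCTL replicate 2), and the authors' deposited table gives it an adjusted p of 0.0325. The 10 genes with groups apart include low ones. Adjacent genes from mt-Co2 to mt-Nd4l (chrM:7013-10173) lay far below their neighbours. In siTET3 replicate 1 they ran from 22.4 in mt-Nd3 to 3159 in mt-Co2, against 716669 in mt-Co1 and 33430.5 in mt-Nd4. All of that stretch but mt-Co3 are among the 10, and mt-Co2, mt-Atp8 and mt-Nd4l are among the calls above. Whether their reads were counted in full was not tested. mt-Nd4l had 110, 114 and 82.8 normalised reads in the siTET3-labelled libraries, against 27.8, 19.0 and 64.6 in the siCTL-labelled libraries. For mt-Nd3 these were 22.4, 25.3 and 25.5, against 11.6, 1.27 and 0, under the value of 3 reads in siCTL replicates 2 and 3. mt-Co1, the catalytic core of complex IV, had 716669, 678864 and 742214 normalised reads in the siTET3-labelled libraries, against 649659, 124781 and 684145 in the siCTL-labelled libraries. It overlapped, with 0.90 and, without replicate 2, 0.10. The median exon GC content of the 13 was 37.1%, against 51.7% in the nuclear members, and after removal of the GC trend the median log2 change was 0.46, or 0.23 without replicate 2.

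**Figure D5:**
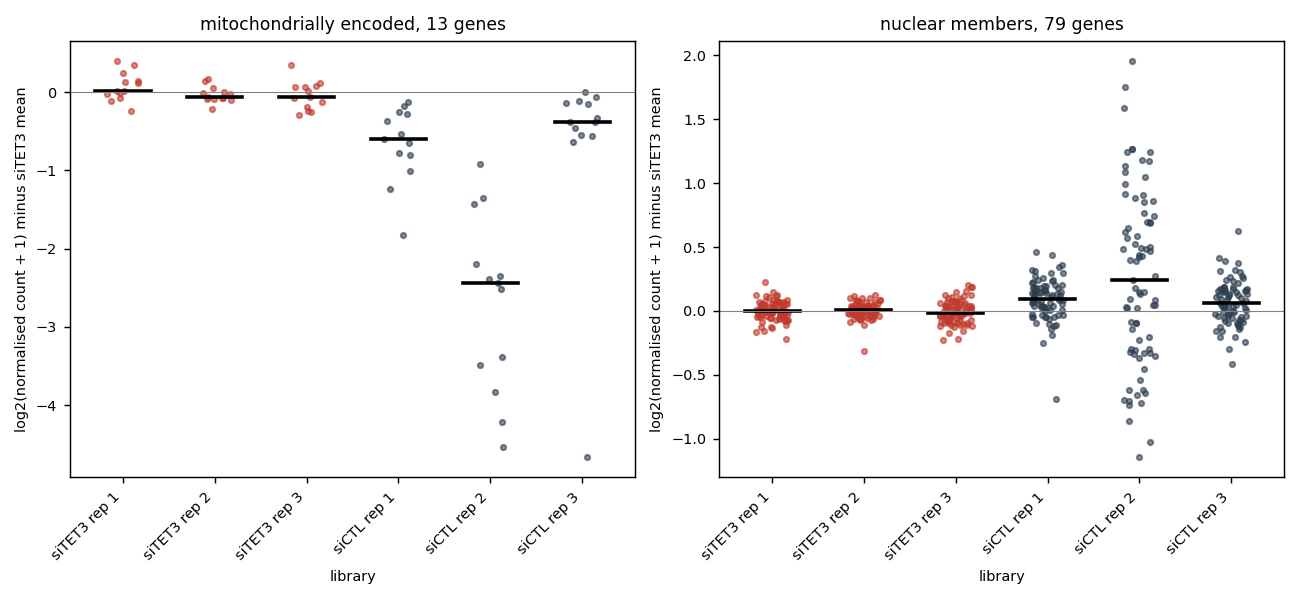
Each gene in each library as log2(normalised count + 1) minus its mean over the siTET3-labelled libraries, for 13 mitochondrially encoded genes (left) and 79 nuclear members (right); black bars are medians and the vertical scales differ. In siCTL replicates 1, 2 and 3 the mitochondrial medians are -0.60, -2.44 and -0.38 and the nuclear medians 0.09, 0.24 and 0.06.

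Among nuclear genes around the chain, limma and edgeR gave no call with all libraries in any list. Of assembly factors, 15 of complex I, 4 of complex II, 6 of complex III, 20 of complex IV and 4 of complex V were tested, and limma called 0 with or without siCTL replicate 2. Cox17, a copper chaperone for complex IV, was called lower without that library by DESeq2 (adjusted p = 0.0434), against 4.43% of all genes. It was also called by limma with the GC trend removed as well (adjusted p = 0.0295), against 1.41%. Its log2 change was -0.20 in the limma fit without that removal, and no other assembly factor was called by any of the tools. The lowest p among them belonged to Tmem186, a complex I assembly factor, with 751, 817 and 768 normalised reads in the siTET3-labelled libraries, against 618, 643 and 639 in the siCTL-labelled libraries. Its groups did not overlap, and the log2 change was 0.30 (limma adjusted p = 0.309). Ndufaf3, another such factor, had 864, 903 and 803 normalised reads in the siTET3-labelled libraries, against 1057, 1208 and 1021 in the siCTL-labelled libraries. These were apart on the lower side, at -0.35 (limma adjusted p = 0.318). Among 10 tested regulators none was called by limma, edgeR or DESeq2: Nrf1, Gabpa and Yy1, whose motifs are given above, had log2 changes of 0.07, 0.04 and 0.09, and Esrra, an orphan nuclear receptor, had -0.28. Ppargc1a, a coactivator of mitochondrial biogenesis, had reads in siTET3 replicate 1 alone (4.08 normalised units). The 13 enzymes of the tricarboxylic acid cycle had a median of -0.02 and no limma or edgeR call. DESeq2 called Mdh2, malate dehydrogenase, lower with all libraries (adjusted p = 0.0442, log2 change -0.27), against 1.88% of all genes. Without siCTL replicate 2 DESeq2 called it lower as well (adjusted p = 0.0111), against 4.43%. Cyc1, Cycs, Ndufab1, Atpif1 and Usmg5, chain genes that the symbol rule leaves out, also gave 0 calls with these tools. The 78 mitochondrial ribosomal protein genes had a median of -0.06 (-0.05 without replicate 2) and 0 limma calls in both fits, beside -0.13 and -0.07 in the respiratory chain members. Of the 78, 61.5% were negative (70.5% without replicate 2), beside 65.8% (73.4%) of the members. Their groups were apart on the lower side in 21.8% (30.8%), beside 29.1% (34.2%) of the members. On the higher side these shares were 6.41% (7.69%) and 3.80% (3.80%). The lean to the lower side was thus not particular to the respiratory chain. Without replicate 2, edgeR called 1 of the 78 lower (Mrpl52), against 2.68% of all genes. DESeq2 without it called Mrpl52 lower and Mrpl30 higher, against 4.43% and 4.64% of all genes.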

How the data were processed

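RNA was sequenced from 6 libraries (3 per title group) made with a stranded mRNA kit, per the labels' protocols. The authors deposited a signal value per gene and library, which is a read count divided by 1 size factor per library: 100% of values came out as whole reads within a tolerance of 0.001. Per the file headers, the same table gives a log2 fold change by the authors (siCTL over siTET3, turned round here), its standard error and Wald statistic (a score, unused), and p-values raw and adjusted. The build is GRCm38 (mm10), per the submitters' processing notes; the aligner and counter were not given in the sources used. Replicate depths were 29587171 to 61709131 reads, so 1 read was worth 0.634 to 1.27 normalised units.

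Members were matched by symbol, and exon length and GC content came from GENCODE release M21. The main test was limma 3.58.1 (R 4.3.3) with a variance trend on log2(value + 1) for 11591 genes with a mean of at least 10, adjusted by Benjamini-Hochberg at 0.05. The design had named this test for normalised values. Fold changes on this scale understate changes of low genes. edgeR 4.0.16 and DESeq2 1.42.0 were run on recovered reads, and the limma fit was tried on simulated data. Values of every library are given for the 3 members of lowest p, the highest per kb and the most positive in each complex, all Sdh genes, any member called in any fit, and the isoform sets; from related lists, up to 3 genes of lowest p. Ndufs4, Uqcrc2, Ndufv3, Ndufb4, mt-Nd2, mt-Co1, the regulators and other called genes of related lists were added after their values were seen. The members and lists were chosen with earlier results of these data known. The result of 1 member is not reported here, and figures with member names leave it out. Per-kb levels use the exon union of protein-coding transcripts. Promoters are from RefSeq; protein sequences were not used here. The alternatives were other pseudocounts, filters, scalings and tools, removal of a GC trend, a replicate block, other memberships, and each library left out.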

Additional observations from a re-analysis of the deposited data

How the results depend on the processing

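With all libraries and without each library in turn, no member was called higher; the members called lower numbered between 0 and 2 when single libraries were left out, the 2 arising without siCTL replicate 2. Over all genes, leaving out single libraries gave between 2 and 197 higher and between 0 and 123 lower, against 34 and 7; the counts without siCTL replicate 1 (22 and 2), siCTL replicate 3 (9 and 0) and siTET3 replicates 1, 2 and 3 (3, 2 and 2 higher, 0 lower) were all smaller. DESeq2 gave 215 higher and 218 lower. Without siCTL replicate 2, DESeq2 gave 538 and 514 (6 members lower), edgeR 316 and 311 (2 members), removal of the base-content trend 248 and 163 (2 members), and a filter over the other 5 libraries, added after the data were seen like the edgeR and DESeq2 fits without that library, 305 and 257 (2 members). Scaling by library size gave 2 lower, and no filter 4 lower. The cause was not tested, except that fits on fewer libraries have fewer degrees of freedom.

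Same-numbered libraries had correlations of 0.03, -0.06 and -0.10 in their deviations from the group means. Those of unlike number ran from -0.08 to 0.11. Since siCTL replicate 2 lay far from its group and moves the siCTL mean, these values cannot decide whether the replicate numbers pair the libraries. With the replicate block, 1 gene was higher and 0 lower, with the trend also removed 4 and 0, and no member was called.

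Leaving out single libraries gave median log2 changes from -0.321 to -0.101 in complex I, from -0.104 to -0.049 in complex II, from -0.254 to -0.0434 in complex III, from -0.0811 to -0.0076 in complex IV and from -0.115 to -0.0478 in complex V. Library-size scaling gave -0.0121 in complex II, 0.0726 in complex IV and -0.0125 in complex V. The trend removed gave -0.0359 in complex II, also with the replicate block; with siCTL replicate 2 left out as well it gave -0.0653 in complex I, -0.0557 in complex II and -0.0122 in complex V. Complex IV turned to 0.0435 with a mean of at least 50 and to 0.0549 with members assigned by function.

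Of 33 named members tested, 15 kept their sign in every alternative. With library-size scaling the sign turned for Tet3 (0.0286), Atp5b (0.0651) and Sdha (0.0169). With the trend removed, with or without the replicate block, it turned for Atp5b (0.0461), Atp5g2 (0.0588), Cox7b (-0.0024) and Sdhb (0.0213). With the trend removed and without siCTL replicate 2 it turned for Atp5e (0.0038), Atp5g3 (0.0695), Cox4i2 (0.407), Cox7a1 (-0.0318), Cox7b (-0.0017), Ndufa4 (-0.0634), Ndufc2 (-0.0003), Sdhd (-0.0398), Uqcrfs1 (-0.0515) and Uqcrh (0.0266). Leaving out single libraries gave ranges across 0 of -0.0766 to 0.0217 for Atp5b, -0.188 to 0.007 for Atp5g1, -0.224 to 0.0677 for Atp5g3, -0.0084 to 0.39 for Atp5j, -0.661 to 0.302 for Cox4i2, -0.0269 to 0.129 for Cox6b1, -0.119 to 0.425 for Cox7a1, -0.11 to 0.154 for Cox8a, -0.0238 to 0.373 for Sdhd, -0.0212 to 0.563 for Uqcrfs1 and -0.606 to 0.0334 for Uqcrh. None of the members that turned was called in any fit, and the cause was not tested.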
